A study of Homo sapiens with 39 samples.

Results

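OCI-M1 is a human erythroleukemia cell line, and its untreated expression state was set against that of 6 other acute myeloid leukemia lines. The members are the 3 OCI-M1 arrays from cells given DMSO vehicle for 24 h, out of 39 arrays in the series. They were chosen by their labels alone and compared with 15 vehicle arrays of the other lines, through the unweighted mean of the 6 line means. There were 3 vehicle arrays each for MV-4-11, NOMO-1 and OCI-AML3, while 2 represented each of Kasumi-1, Sig-M5 and KG-1a. The study exposed every line to vehicle or to tamibarotene (SY-1425), an agonist of retinoic acid receptor alpha, at a final concentration of 50 nM for 24 h. The 21 tamibarotene arrays, 3 in each of the 7 lines, served here to repeat the comparison in arrays that the vehicle comparison did not use. Each line is a single long-cultured line from a patient, so a value of OCI-M1 describes that line and not erythroleukemia in general. The labels do not say whether replicate arrays came from separate cultures, so the p-values measure the spread between these arrays, which may be technical. In RNA from whole cultures, fewer cells of a type and less RNA per cell cannot be told apart.

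Red cell development from myeloid progenitors is driven by GATA1, TAL1 and KLF1, transcription factors that switch on globin, heme synthesis and red cell membrane genes, while erythropoietin acts through its receptor and the kinase JAK2. The factors SPI1, CEBPA and IRF8 direct the alternative granulocyte and monocyte fates and their granule proteins. Erythroleukemia cells keep part of the red cell programme and often do not complete it.

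Values are log2 intensities on Affymetrix PrimeView arrays, where a difference of 1 is a doubling, and each gene is read from 1 probe set. Calls required limma's adjusted p to lie under 0.05, with Benjamini-Hochberg adjustment over all 44988 probe sets that name a single gene symbol. A called gene was termed highest or lowest in OCI-M1 when, in addition, OCI-M1 differed from each of the 6 lines in the same direction at that threshold and its 3 arrays lay beyond all 15 others. Precision is limited by the number of arrays, and the error after ± is the standard error of the fit unless named otherwise.

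The upstream sequences of 6 erythroid genes with the largest differences among those highest in OCI-M1 that have an entry in the promoter table, and of CTSG, the granule gene with the largest deficit, are shown because their expression separates OCI-M1 from the other lines. Each spans 250 bases before to 50 bases after the gene start in RefSeq (GRCh38.p14), 5′ to 3′ on the gene's strand. Capitals mark the GATA words AGATAA and TGATAA and the KLF word CCNCNCCC, read on both strands, so TTATCT and TTATCA mark the words on the opposite strand.
KLF1 (chr19:12887152-12887451, minus strand): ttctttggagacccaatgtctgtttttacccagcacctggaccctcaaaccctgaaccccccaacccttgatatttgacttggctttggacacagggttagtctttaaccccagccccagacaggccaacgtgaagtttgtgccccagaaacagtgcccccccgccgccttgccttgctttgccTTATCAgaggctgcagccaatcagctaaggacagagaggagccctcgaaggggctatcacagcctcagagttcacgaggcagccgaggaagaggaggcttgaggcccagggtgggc
ICAM4 (chr19:10286705-10287004, plus strand): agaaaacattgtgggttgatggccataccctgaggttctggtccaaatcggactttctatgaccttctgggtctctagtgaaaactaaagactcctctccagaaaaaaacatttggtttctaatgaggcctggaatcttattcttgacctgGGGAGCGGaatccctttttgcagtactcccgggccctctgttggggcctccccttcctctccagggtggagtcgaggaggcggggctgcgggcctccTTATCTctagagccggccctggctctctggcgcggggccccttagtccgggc
SLC40A1 (chr2:189580737-189581036, minus strand): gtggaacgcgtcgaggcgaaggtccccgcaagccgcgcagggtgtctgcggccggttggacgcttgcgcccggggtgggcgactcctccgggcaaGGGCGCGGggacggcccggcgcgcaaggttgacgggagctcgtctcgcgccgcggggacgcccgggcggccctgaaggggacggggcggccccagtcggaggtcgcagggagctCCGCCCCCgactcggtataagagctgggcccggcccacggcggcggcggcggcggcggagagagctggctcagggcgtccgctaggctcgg
GATA1 (chrX:48786340-48786639, plus strand): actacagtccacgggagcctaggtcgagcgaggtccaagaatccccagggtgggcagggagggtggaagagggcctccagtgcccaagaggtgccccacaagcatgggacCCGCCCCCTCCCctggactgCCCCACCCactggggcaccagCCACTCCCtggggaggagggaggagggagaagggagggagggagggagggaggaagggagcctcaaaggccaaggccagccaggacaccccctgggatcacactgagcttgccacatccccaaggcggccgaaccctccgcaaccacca
TAL1 (chr1:47232286-47232585, minus strand): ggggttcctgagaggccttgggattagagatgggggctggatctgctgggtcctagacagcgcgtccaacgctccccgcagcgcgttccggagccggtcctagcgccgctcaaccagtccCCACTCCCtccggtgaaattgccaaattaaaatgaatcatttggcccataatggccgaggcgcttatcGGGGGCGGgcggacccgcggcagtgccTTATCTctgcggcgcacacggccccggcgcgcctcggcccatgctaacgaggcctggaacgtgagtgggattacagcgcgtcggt
ALAS2 (chrX:55030928-55031227, minus strand): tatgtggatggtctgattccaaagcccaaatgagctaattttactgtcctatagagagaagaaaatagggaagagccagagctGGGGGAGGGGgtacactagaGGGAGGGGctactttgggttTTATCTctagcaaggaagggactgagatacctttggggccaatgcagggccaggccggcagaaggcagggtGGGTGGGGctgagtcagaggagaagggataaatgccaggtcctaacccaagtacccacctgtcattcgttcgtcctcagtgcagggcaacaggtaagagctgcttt
CTSG (chr14:24576201-24576500, minus strand): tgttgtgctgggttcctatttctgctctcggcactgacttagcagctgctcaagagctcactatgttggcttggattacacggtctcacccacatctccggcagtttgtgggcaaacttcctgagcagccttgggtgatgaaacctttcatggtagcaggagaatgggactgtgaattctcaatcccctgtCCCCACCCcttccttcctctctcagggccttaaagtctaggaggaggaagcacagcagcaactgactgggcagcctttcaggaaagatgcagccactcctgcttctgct

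A GATA word stood in the KLF1, ICAM4, TAL1 and ALAS2 windows and in none of the SLC40A1, GATA1 and CTSG windows. A KLF word stood in 6 of the 7 windows, all but KLF1, and overlapping KLF words occur in the GATA1 and ALAS2 windows. Of the 27 genes on the erythroid lists that were highest in OCI-M1, 15 had an entry in the table, and 8 of those (53.3%) held a GATA word. The share was 12.7% of the other 55 measured erythroid list members with an entry, 11.9% of all measured genes and 16.6% of all 27305 promoters in the table. It was 12.5% for the 728 genes highest in OCI-M1 with an entry and 5.31% for the 471 lowest. The KLF word stood in 93.3% of the 15 erythroid genes, 78.2% of the other erythroid list members, 67.5% of all measured genes and 55.1% of all promoters. Its share was 70.5% for the genes highest in OCI-M1 and 80.3% for the lowest, so it was common in every set. A match is a description of the letters in a window and not a bound site.

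Medians lay between 5.01 and 5.17 over the 18 vehicle arrays, and the arrays' background control probe sets had medians of 2.78 to 3.06, so differences from values near that level may be understated. The beta-actin control probe sets gave a 3′ minus 5′ difference of 0.11, 0.52 and 0.56 in the OCI-M1 vehicle arrays, where a larger value goes with more degraded RNA. It was 0.81 and 1.89 in Sig-M5, 1.18 and 0.30 in Kasumi-1, and -0.02 to 0.17 in the other vehicle arrays. With this difference as a covariate, 3823 genes were called higher and 5083 lower, and without the 3 arrays of largest difference, a choice made after seeing the data, 3713 were called higher and 4615 lower.

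Many genes separated OCI-M1 from the mean of the other lines. Of 18132 genes, 8635 (47.6%) were called, 3746 higher (20.7%) and 4889 lower (27.0%), and the median difference over all genes was -0.09. Over probe sets, 20347 of 44988 (45.2%) were called. By the stricter rule, 901 genes (4.97%) were highest and 563 (3.11%) were lowest in OCI-M1, which together is 1464 genes. By the same rule Sig-M5 had 2657 such genes, KG-1a 1201, Kasumi-1 919, NOMO-1 890, OCI-AML3 426 and MV-4-11 406. For OCI-M1, adjusting for the beta-actin measure left 855 highest and 497 lowest genes, while dropping the 3 arrays in which it was largest gave 967 and 753. Those 3 are both Sig-M5 arrays and 1 of Kasumi-1, so OCI-M1 then had only 5 lines to lie beyond. The part of the unequal array numbers in the order of the lines was not tested. Taken singly, OCI-M1 had 4248 genes higher and 5449 lower than Sig-M5, the largest numbers of the 6 comparisons, and 2962 higher and 3567 lower than Kasumi-1, the smallest sum. The correlation of line means across genes, which share the arrays' probe effects, ran between 0.876 with Sig-M5 and 0.910 with OCI-AML3.

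The test uses the spread between arrays of a line. When the 7 line means were the units, so that the spread between the other lines entered the test, 164 genes were called higher and 24 lower, with 5 residual degrees of freedom. All 164 were among the 901 highest genes, and all 24 were among the 563 lowest. Genes named below as passing the line-mean test are among these.

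Some erythroid transcription factors were among the genes that set the line apart, and others were not. KLF1, the erythroid Krüppel-like factor that switches on adult beta-globin, measured 11.35, 11.26 and 11.36 in the OCI-M1 arrays, against 4.38 at the lowest, 4.99 at the median and 7.37 at the highest in the other arrays. Its difference of 5.92 ± 0.13 corresponds to 60.3-fold (adjusted p = 9.92e-15), and it exceeded the next line, Kasumi-1, by 4.32. The groups did not overlap, and the line-mean test gave an adjusted p of 0.0469. GATA1, the zinc finger factor required for red cell and megakaryocyte maturation, measured 9.98, 9.82 and 9.98 in OCI-M1, against 5.80 at the lowest, 6.08 at the median and 6.93 at the highest in the other arrays. GATA1 was higher by 3.77 ± 0.09 (adjusted p = 2.38e-14), without overlap, and passed the line-mean test (adjusted p = 0.00302). TAL1, a partner of GATA1 in the erythroid DNA-binding complex, measured 8.53, 8.89 and 8.74 in OCI-M1, against 3.41 at the lowest, 4.21 at the median and 7.52 at the highest elsewhere. It was higher by 3.72 ± 0.12 (adjusted p = 5.70e-13), and KG-1a came nearest, 1.21 below OCI-M1. TAL1 did not pass the line-mean test (adjusted p = 0.623).

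NFE2 (difference 3.92 ± 0.14), LDB1 (1.70 ± 0.12) and ZFPM1 (1.68 ± 0.18), a GATA1 cofactor, were also highest in OCI-M1. None of them passed the line-mean test (adjusted p = 0.698, 0.610 and 0.635). In all, 10 of 18 measured factors were called higher and 3 lower, against 20.7% and 27.0% of all genes, with 6 highest and 1 lowest, against 4.97% and 3.11%. Their median difference was 0.96, and their mean level was 8.07 to 8.18 in the OCI-M1 arrays, against 6.36 to 7.30 in the others. With line means as the units, GATA1 and KLF1 were the 2 factors called higher, and 0 were called lower. Over all 18132 genes, 164 were called higher and 24 lower in that test. GFI1B, a transcriptional repressor that acts within the erythroid and megakaryocyte lineages, was shared with KG-1a: it averaged 9.98 in OCI-M1, against 9.85 in KG-1a, a difference of 0.13 that was not called (adjusted p = 0.347), while every other line lay under 5 on average. GATA2, a factor of early progenitors and mast cells, was likewise at 11.16 in OCI-M1 and 10.97 in KG-1a. BCL11A, the repressor of fetal globin, was called lower at -2.94 ± 0.14 (adjusted p = 7.49e-11), with OCI-AML3 at 5.05 against 5.53 in OCI-M1. ZBTB7A, another globin repressor, was lowest in OCI-M1 (-1.24 ± 0.12). HEMGN, a nuclear factor of the red cell lineage, stood at -0.11 and SOX6 at -0.17, and neither was called. Of 8 regulators of the fetal and embryonic programme, 3 were called higher and 2 lower (median 0.29).

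**Figure D1:**
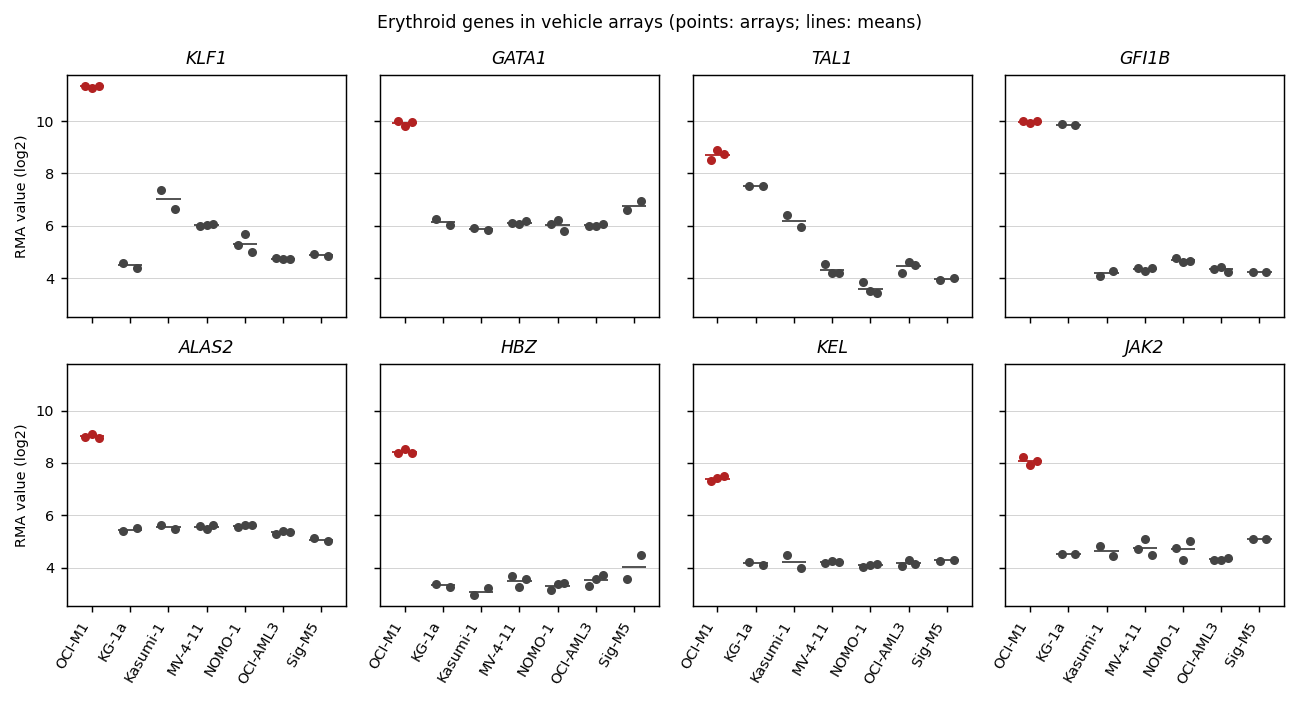
Log2 values of 8 erythroid genes in every vehicle array (points) of the 7 lines (horizontal axis, OCI-M1 leftmost in red), with line means as bars. KLF1, GATA1, ALAS2, HBZ, KEL and JAK2 are above every other array, while GFI1B is nearly as high in KG-1a.

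Globin genes, including both embryonic ones measured, were highest in OCI-M1. HBZ, the embryonic zeta chain, measured 8.37, 8.51 and 8.38 in OCI-M1, against 2.93 at the lowest, 3.38 at the median and 4.46 at the highest in the other arrays. Its difference was 4.97 ± 0.15 (adjusted p = 1.84e-13), and it passed the line-mean test (adjusted p = 9.37e-04). HBE1, the embryonic epsilon chain, measured 8.22, 7.88 and 8.10 in OCI-M1, against 3.99 at the lowest, 4.35 at the median and 4.60 at the highest in the other arrays, higher by 3.73 ± 0.11 (adjusted p = 2.11e-13). Neither gene overlapped any other line, and both, with HBB and AHSP, passed the line-mean test. HBB, the adult beta chain, averaged 6.55 in OCI-M1, against line means of 4.70 to 5.18 elsewhere, and AHSP, the chaperone of alpha chains, averaged 6.30, against 4.29 to 4.58. HBQ1 was also highest (difference 2.80 ± 0.19) but did not pass the line-mean test (adjusted p = 0.661), and HBM was not called (-0.17). Globin genes resemble each other closely, so single members are uncertain where probes could cross-react. In all, 5 of 6 measured members were called higher and highest, against 20.7% and 4.97% of all genes. The list's median difference was 2.34, and its mean level was 7.09 to 7.19 in the OCI-M1 arrays, against 4.28 to 4.98 in the others. HBA1, HBA2, HBD, HBG1 and HBG2 were not analysed here.

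Heme synthesis genes were higher in part. ALAS2, the erythroid form of the first and rate-limiting enzyme of heme synthesis, measured 9.01, 9.10 and 8.94 in OCI-M1, against 5.02 at the lowest, 5.49 at the median and 5.64 at the highest in the other arrays. It was higher by 3.59 ± 0.07 (adjusted p = 1.71e-15), without overlap, and passed the line-mean test (adjusted p = 8.45e-04). The later enzymes PPOX (1.84 ± 0.11) and CPOX (1.07 ± 0.08) were highest too. UROD, which acts in the middle of the pathway, was called higher (1.35 ± 0.09) with a difference of -0.11 from KG-1a (adjusted p = 0.523), and ALAD, the second enzyme, was called lower (-1.48 ± 0.15). Of 12 measured heme synthesis genes, 9 were called higher and 2 lower, against 20.7% and 27.0% of all genes, with a median of 0.64. ALAS2 was the 1 member called with line means as the units, where 164 of all 18132 genes were higher and 24 lower. BLVRB, a biliverdin reductase that is abundant in red cells, averaged 11.43 in OCI-M1, against 6.49 to 9.28 elsewhere. Of 8 heme breakdown and export genes, 5 were called higher and 1 lower (median 1.07).

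Among iron genes, SLC40A1 (ferroportin, the iron exporter) measured 9.25, 9.33 and 9.50 in OCI-M1, against 2.85 at the lowest, 3.12 at the median and 7.13 at the highest in the other arrays, higher by 5.20 ± 0.14 (adjusted p = 7.59e-14). TFR2, the other transferrin receptor, which also associates with the erythropoietin receptor, was highest with a difference of 3.56 ± 0.13. TFRC, the main transferrin receptor, was called higher (1.03 ± 0.28, adjusted p = 0.00659), with a difference of -0.17 from Sig-M5 (adjusted p = 0.745), and taken singly it was called higher than in MV-4-11 and OCI-AML3 only. The list as a whole was mixed, with a median of 0.12. Called higher were 5 of 11 measured members and lower 3, against 20.7% and 27.0% of all genes. With line means as the units, 0 members were called higher and 0 lower, against 164 and 24 of all 18132 genes.

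Some red cell surface and skeleton genes were highest in OCI-M1 and others were not above the other lines. KEL, the Kell blood group enzyme, measured 7.30, 7.41 and 7.48 in OCI-M1, against 3.98 at the lowest, 4.16 at the median and 4.48 at the highest elsewhere, higher by 3.21 ± 0.09 (adjusted p = 1.20e-13). XK, the Kell partner protein, averaged 9.68 in OCI-M1 and Kasumi-1 was next at 8.52. ICAM4, the Landsteiner-Wiener antigen, averaged 10.78, against line means of 4.02 to 8.10 elsewhere. ANK1, which anchors the membrane to the spectrin skeleton, measured 7.32, 7.94 and 7.88 in OCI-M1, against 3.86 at the lowest, 4.27 at the median and 4.64 at the highest in the other arrays. KEL and ANK1 also passed the line-mean test, while XK (adjusted p = 0.827) and ICAM4 (adjusted p = 0.289) did not. RHAG, the Rh-associated glycoprotein, averaged 10.48 in OCI-M1 and 10.35 in KG-1a, a difference of 0.12 that was not called (adjusted p = 0.563). CD44, an adhesion receptor that carries the Indian blood group and declines as red cells mature, was lowest in OCI-M1 at -2.63 ± 0.09.

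Late red cell markers gave mixed calls. SLC4A1, the band 3 anion exchanger, measured 5.05, 5.05 and 4.71 in OCI-M1, against 4.39 at the lowest, 5.09 at the median and 5.62 at the highest in the other arrays, and was not called (-0.12, adjusted p = 0.474). RHD was not called either (-0.07), while RHCE was called higher (0.43). EPB42, a membrane skeleton protein, was called higher by 0.55 ± 0.08, with a mean of 4.01 in OCI-M1, against line means of 3.30 to 3.76. Of 15 measured membrane genes, 9 were called higher and 3 lower (median 0.55), and of 16 blood group genes 6 were higher and 1 lower (median -0.05). The shares over all genes were 20.7% higher, 27.0% lower and 4.97% highest. The glycophorins were not analysed here. In the late erythroid list, CA1, a red cell carbonic anhydrase, averaged 8.44 in OCI-M1, against 3.47 to 4.12 elsewhere, and CA1 and SELENBP1 were the 2 of 16 measured members that were highest in OCI-M1, both of which passed the line-mean test. The CA1 difference ran from 2.89 to 4.86 across the alternative analyses described below. In that list 6 members were called higher and 5 lower, with a median of -0.01.

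Most erythropoietin receptor signalling genes were called higher. JAK2, the kinase bound to the receptor, measured 8.23, 7.90 and 8.09 in OCI-M1, against 4.30 at the lowest, 4.53 at the median and 5.09 at the highest in the other arrays. It was higher by 3.41 ± 0.14 (adjusted p = 6.55e-12), without overlap, and passed the line-mean test (adjusted p = 0.00211). EPOR, the receptor, measured 6.78, 6.86 and 6.97, against 4.07 at the lowest, 5.64 at the median and 6.27 at the highest, a difference of 1.60 ± 0.16 (adjusted p = 3.68e-07). PIM1 and SOCS2, genes induced by STAT5 signalling, were highest with differences of 3.48 ± 0.10 and 3.42 ± 0.12. CISH differed by 1.08 but was not called different from KG-1a (adjusted p = 0.190) or MV-4-11 (adjusted p = 0.616). SOCS3 differed by -0.01. KIT, the stem cell factor receptor, averaged 9.82 in OCI-M1, below the 10.73 of Kasumi-1. Of 13 measured members, 11 were called higher and 1, the phosphatase PTPN6, lower (-0.45 ± 0.10), with a median of 1.39, against 20.7% and 27.0% of all genes. JAK2 was the 1 member called with line means as the units, where 164 of all 18132 genes were called higher and 24 lower.

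Megakaryocyte markers were divided. ITGA2B, the platelet integrin alpha chain, averaged 10.28 in OCI-M1 and 10.47 in KG-1a, with the other arrays down to 3.94. PEAR1, a platelet receptor, was highest (3.94 ± 0.14) and passed the line-mean test. FLI1, an ETS factor of megakaryocytes, was among the lowest genes of all, as given below. Of 22 measured markers, 7 were called higher and 4 lower, against 20.7% and 27.0% of all genes, with a median of -0.04.

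**Figure D2:**
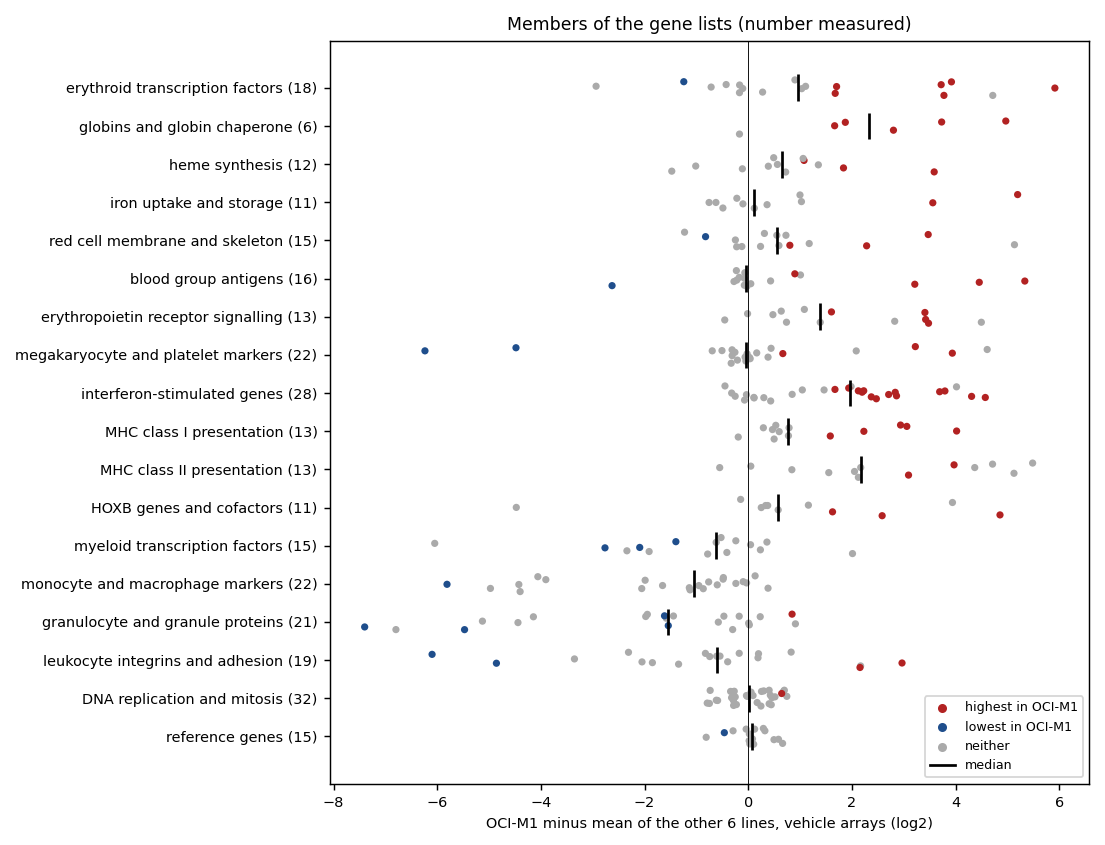
Difference between OCI-M1 and the mean of the other 6 lines (horizontal axis, log2) for the measured members of 18 gene lists (rows, number measured in brackets), with red and blue points for genes highest and lowest in OCI-M1 and a bar at the median. The globin, erythropoietin signalling, MHC class II and interferon lists lie right of 0, with medians of 2.34, 1.39, 2.17 and 1.96, and the granulocyte list lies left, with a median of -1.54.

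Most measured granulocyte and monocyte genes were called lower than the mean of the other lines. With line means as the units, limma called 0 members lower in the granulocyte, monocyte, NADPH oxidase and myeloid factor lists. Over all 18132 genes only 24 were called lower in that test, so a count of 0 says little about these lists. At an unadjusted p under 0.05 these lists had 2, 0, 0 and 1 lower, against 499 of all genes. CTSG (cathepsin G), a neutrophil granule protease, measured 4.17, 3.66 and 4.13 in OCI-M1, against 6.27 at the lowest, 12.14 at the median and 13.86 at the highest in the other arrays. Its difference was -7.40 ± 0.10 (adjusted p = 3.59e-17), without overlap, and KG-1a was next at 6.29. S100A9, a calcium-binding protein of neutrophils and monocytes, measured 3.36, 3.56 and 3.65 in OCI-M1, against 4.78 at the lowest, 10.58 at the median and 13.59 at the highest elsewhere (-5.81 ± 0.08, adjusted p = 7.45e-17), without overlap. Neither gene passed the line-mean test. MPO (myeloperoxidase) measured 4.27, 4.07 and 3.75, against 4.81 at the lowest, 6.80 at the median and 13.94 at the highest, and was lowest in OCI-M1 with OCI-AML3 at 5.05 and KG-1a at 4.90. ELANE (neutrophil elastase) was called lower (-6.80 ± 0.11) with means of 4.65 in OCI-M1 and 4.53 in KG-1a, which were not called different (adjusted p = 0.609). Of 21 measured granulocyte genes, 15 were called lower and 3 higher (median -1.54), against 27.0% called lower among all genes. Their mean level was 4.30 to 4.45 in the OCI-M1 arrays, against 4.70 to 7.75 in the others.

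The monocyte list gave 17 of 22 lower and 1 higher (median -1.04), against 27.0% and 20.7% of all genes. Its mean was 4.50 to 4.59 in the OCI-M1 arrays, against 4.16 and 4.27 in KG-1a and 5.23 to 8.09 in the other lines, so KG-1a lay below OCI-M1. S100A8 differed by -4.98 ± 0.09, MS4A6A by -4.43 ± 0.09 and TLR2, a pattern receptor, by -4.40 ± 0.18, and OCI-M1 differed from KG-1a by -0.25, -0.04 and -0.19, none of them called. All 4 measured NADPH oxidase genes were called lower (median -0.96), with the largest difference in CYBB at -2.06 ± 0.21. CYBB averaged 4.54 in OCI-M1, against 3.70 in KG-1a, where it was called lower than in OCI-M1 (adjusted p = 0.0374), and OCI-M1 was not called different from Kasumi-1 or MV-4-11. The mean of the NADPH oxidase list was 8.63 to 8.71 in the OCI-M1 arrays, against 7.80 and 7.86 in KG-1a and 9.08 to 11.04 in the other lines. IRF8, a monocyte lineage factor, measured 3.43, 3.90 and 3.99 in OCI-M1, against 3.88 at the lowest, 10.96 at the median and 12.84 at the highest in the other arrays (-6.05 ± 0.15, adjusted p = 2.26e-14), and 1 KG-1a array lay within the range of OCI-M1. SPI1 was called lower (-0.78 ± 0.13, adjusted p = 1.65e-04) as was CEBPA (-1.91 ± 0.17). OCI-M1 was not called different from KG-1a or Kasumi-1 in SPI1, nor from Kasumi-1 in CEBPA (8.32 in OCI-M1, 7.80 in Kasumi-1). GFI1, BATF and IKZF1 were lowest in OCI-M1 among the 15 measured myeloid factors, 9 of which were called lower and 2 higher (median -0.62).

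**Figure D3:**
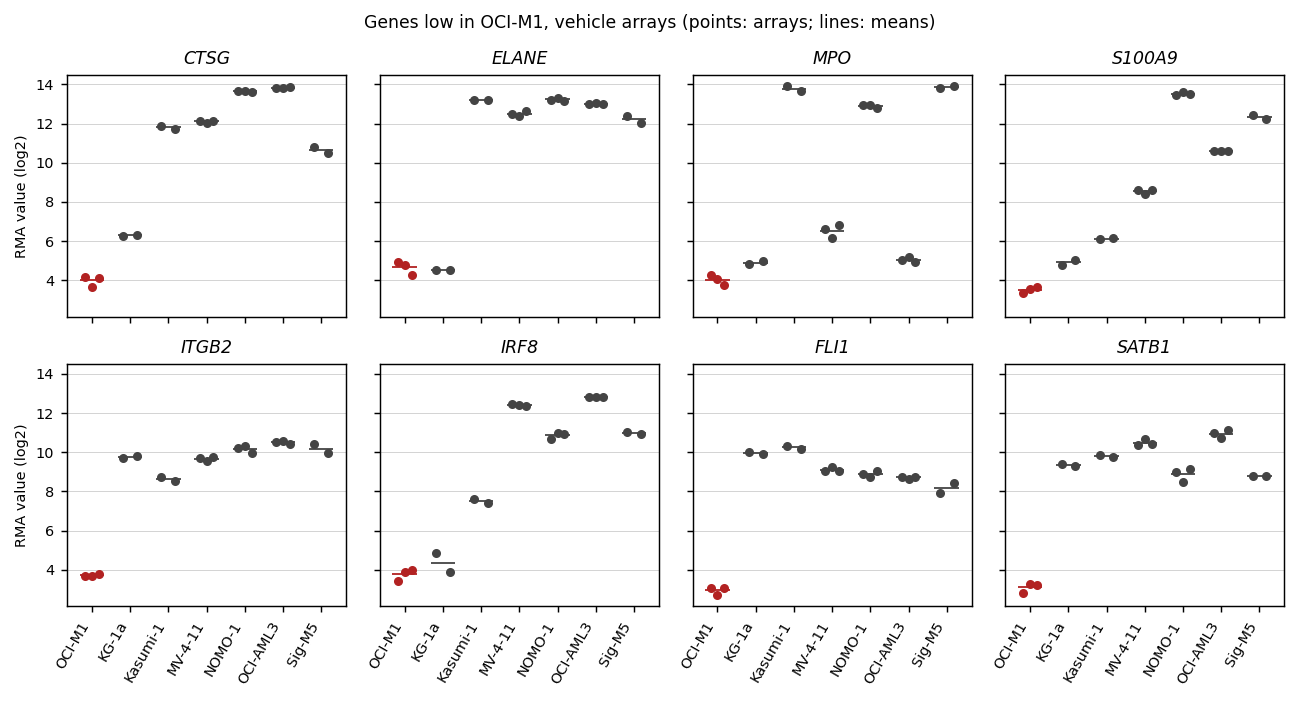
Log2 values of 8 genes low in OCI-M1 (leftmost, red) in every vehicle array (points) of the 7 lines, with line means as bars. ITGB2, FLI1 and SATB1 are high in every other line, and ELANE and IRF8 are nearly as low in KG-1a.

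Several of the lowest genes were far higher in every other line. ITGB2, the beta chain of the leukocyte integrins, measured 3.69, 3.66 and 3.79 in OCI-M1, against 8.53 at the lowest, 9.94 at the median and 10.60 at the highest in the other arrays (-6.10 ± 0.10, adjusted p = 3.04e-16). FLI1 measured 3.06, 2.69 and 3.08, against 7.93 at the lowest, 9.03 at the median and 10.31 at the highest, a difference of -6.24 ± 0.11 (adjusted p = 5.90e-16). SATB1, an organiser of chromatin loops, measured 2.81, 3.28 and 3.20, against 8.48 at the lowest, 9.76 at the median and 11.12 at the highest (-6.60 ± 0.13, adjusted p = 1.59e-15). These genes were separated from the nearest line by more than 4 on the log2 scale and passed the line-mean test, as did NEK6, HENMT1 and RCSD1. FLI1 and SATB1 each had another probe set with a difference nearer to zero, at -0.41 and -0.36.

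CD24, a surface glycoprotein, had the largest difference of the genes highest in OCI-M1, leaving out XIST, TSIX and Y chromosome genes, which were not ranked. It measured 13.10, 13.21 and 13.39 in OCI-M1, against 3.10 at the lowest, 3.56 at the median and 6.30 at the highest in the other arrays, a difference of 8.96 ± 0.13 or 497-fold (adjusted p = 8.42e-17). NMU (neuromedin U, a secreted neuropeptide) measured 11.67, 11.57 and 11.50, against 2.81 at the lowest, 3.06 at the median and 3.32 at the highest, higher by 8.51 ± 0.10 (adjusted p = 7.13e-18). Neither overlapped another line, and both passed the line-mean test. PRAME, a tumour antigen, was higher by 7.56 ± 0.07, and the apolipoprotein genes APOC1 and APOE by 7.09 ± 0.08 and 6.14 ± 0.10. PRAME, APOC1, APOE and BMP6 passed the line-mean test, while CCND1, TIMP3 and PRG2 did not. One of the 4 other APOC1 probe sets differed by -0.16. BMP6, a ligand that raises hepcidin in the liver, was higher by 6.95 ± 0.11, cyclin D1 (CCND1) by 5.90 ± 0.10 and the metalloproteinase inhibitor TIMP3 by 6.04 ± 0.14. PRG2, the major basic protein of eosinophil granules, was higher by 7.08 ± 0.15, while RNASE2, another eosinophil granule protein, was lowest at -6.61 ± 0.12.

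Most antigen presentation and interferon genes were called higher than the mean of the other lines. With line means as the units, 1 class II, 0 class I and 3 interferon-stimulated genes were called higher in limma, and 1, 2 and 14 had an unadjusted p under 0.05. Over all 18132 genes, 164 were called higher in that test, and 818 were higher at an unadjusted p under 0.05. Of 13 measured MHC class II genes, 11 were called higher and 1 lower (median 2.17), against 20.7% and 27.0% of all genes, but only HLA-DQB1 and IFI30 were highest. HLA-DRA averaged 12.64 in OCI-M1, against 13.50 in NOMO-1 and 3.87 in OCI-AML3, and OCI-M1 differed from NOMO-1 by -0.86 (adjusted p = 1.67e-04). HLA-DRB5, which was not on that list, measured 10.06, 9.87 and 9.85 in OCI-M1, against 3.04 at the lowest, 3.33 at the median and 4.88 at the highest elsewhere, with a difference of 6.36 ± 0.11, and passed the line-mean test. HLA-DRB5 and HLA-DRB1 are closely similar genes, so signal from one could reach the other's probes, and these values are uncertain. Of 13 class I presentation genes, 12 were called higher and 5, among them the peptide transporter TAP1 (3.06 ± 0.11) and the immunoproteasome subunit PSMB9 (2.94 ± 0.09), were highest (median 0.77).

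Of 28 measured interferon-stimulated genes, 20 were called higher and 1 lower, and 14 were highest in OCI-M1, against 4.97% of all genes. Their mean level was 7.90 to 8.05 in the OCI-M1 arrays, against 5.60 to 6.94 in the others. IFI27, an interferon-induced mitochondrial protein, measured 10.68, 10.65 and 10.68 in OCI-M1, against 5.56 at the lowest, 6.14 at the median and 6.43 at the highest in the other arrays (4.57 ± 0.11, adjusted p = 1.72e-14), and it passed the line-mean test. IFITM3, a membrane protein that restricts virus entry, was higher by 4.31 ± 0.11, with Kasumi-1 next at 11.12. IFITM1 averaged 13.50 in OCI-M1 and 13.40 in KG-1a.

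**Figure D4:**
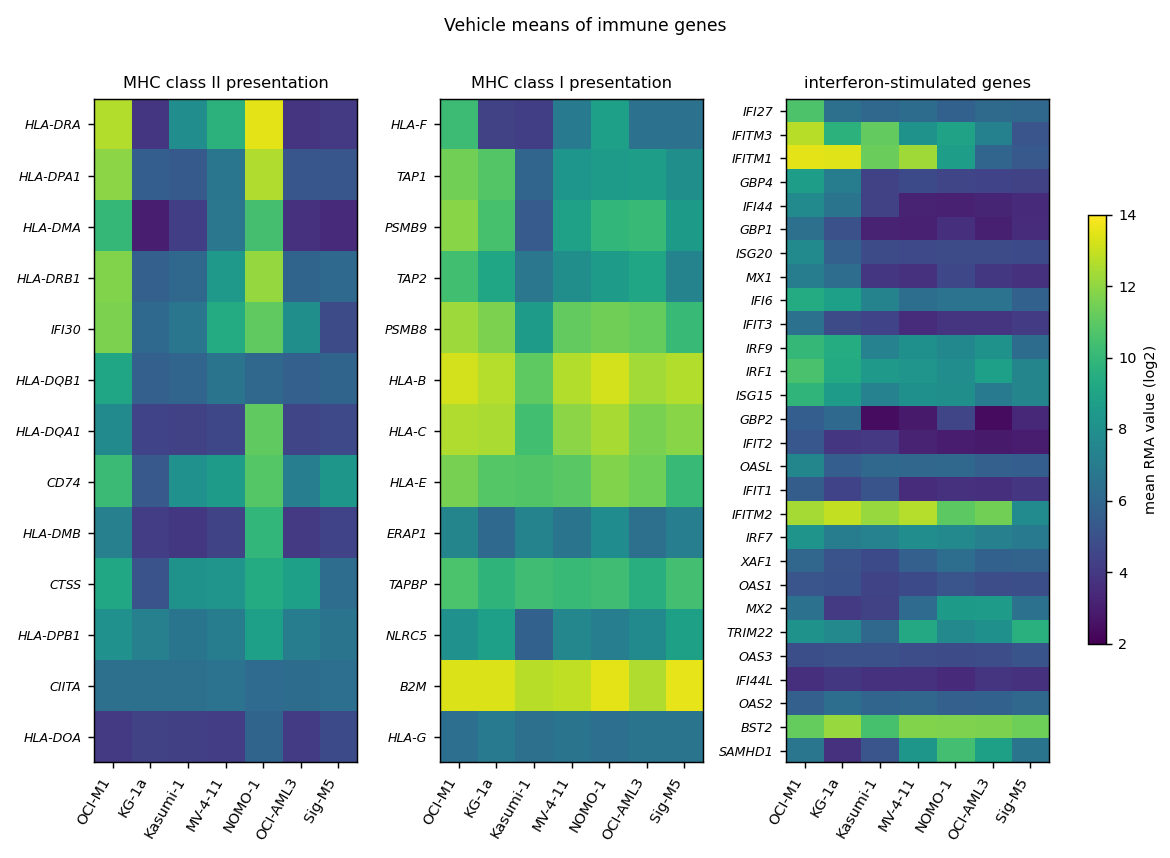
Vehicle line means (colour, log2) of the measured MHC class II, MHC class I and interferon-stimulated genes (rows) in the 7 lines (columns, OCI-M1 first). NOMO-1 exceeds OCI-M1 for HLA-DRA, HLA-DPA1 and HLA-DRB1, while IFI27 is brightest in OCI-M1.

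Further groups were less uniform. Their counts stand against 20.7% called higher and 27.0% called lower among all genes. HOXB9, a homeobox gene, measured 8.94, 9.28 and 9.51 in OCI-M1, against 3.97 at the lowest, 4.45 at the median and 4.75 at the highest elsewhere, higher by 4.86 ± 0.13 (adjusted p = 4.01e-14), and passed the line-mean test, and 6 of 11 HOXB genes and cofactors were called higher and 1 lower (median 0.58). The HOXA genes other than HOXA2, which was called lower (-0.54), were not analysed here. RARA, the target of tamibarotene, was not called (-0.26 ± 0.14, adjusted p = 0.152), while its partner RXRA was lowest in OCI-M1 (-2.37 ± 0.11, adjusted p = 3.27e-11). Of 20 retinoid receptor and metabolism genes, 4 were called higher and 6 lower (median -0.17), close to the shares of all genes. CD34, a progenitor marker, was called lower (-1.39 ± 0.19), but only KG-1a (9.67) and Kasumi-1 (7.70) were called above the 4.93 of OCI-M1, and the other 4 lines were not called different. FLT3, the receptor kinase, was called lower too (-2.43 ± 0.25), and 4 of 20 progenitor markers were called higher and 8 lower (median -0.06).

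Adhesion and receptor genes were mixed. For comparison, 20.7% of all genes were called higher and 27.0% lower. Of 19 measured integrin and adhesion genes, 4 were called higher and 11 lower (median -0.61), with ICAM3 lowest in OCI-M1 (-4.86 ± 0.11), ITGAL, the partner chain of ITGB2, called lower (-3.35 ± 0.10) and ICAM1 highest (2.97 ± 0.21). Across the alternative analyses described below, the ICAM3 difference ran from -5.44 to -1.85. CSF2RB, the shared beta chain of the IL-3, IL-5 and GM-CSF receptors, measured 11.24, 11.63 and 11.79 in OCI-M1, against 2.68 at the lowest, 9.04 at the median and 9.90 at the highest in the other arrays (3.93 ± 0.11). INSR, the insulin receptor, measured 2.85, 3.54 and 3.58, against 5.78 at the lowest, 7.67 at the median and 9.47 at the highest, and was lowest in OCI-M1 (-4.25 ± 0.15, adjusted p = 1.98e-12). The INSR difference ran from -4.56 to -2.49 across the alternative analyses. Of 25 cytokine and growth factor receptors, 5 were called higher and 9 lower (median -0.11). FCER1A, the alpha chain of the IgE receptor of mast cells and basophils, was highest (4.74 ± 0.09), and 5 of 12 eosinophil, basophil and mast cell genes were called higher and 2 lower (median 0.01).

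Lists for proliferation, housekeeping and other cell types had medians between -0.27 and 0.08. The shares called over all genes were 20.7% higher and 27.0% lower. The DNA replication and mitosis list had 8 of 32 called higher and 10 lower (median 0.02), and the reference genes had 5 of 15 higher and 3 lower (median 0.08). Of the adherent and endothelial markers 2 were called higher and 6 lower (median -0.18), of the T and NK cell markers 2 and 6 (median -0.18), and of the B cell markers 1 and 5 (median -0.27). The mean of the 20 adherent and endothelial markers was 4.23 to 4.29 in the OCI-M1 arrays, against 4.35 to 4.72 in the other arrays. The 14 T and NK cell markers averaged 4.44 to 4.49 in OCI-M1, against 4.34 to 5.97 elsewhere, and the 11 B cell markers 5.46 to 5.52, against 4.61 to 5.54. The B cell mean includes CD24, the 1 member called higher, at 13.23 in OCI-M1 against line means of 3.30 to 6.18 elsewhere.

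The comparison was repeated in the tamibarotene arrays, where 9883 genes (54.5%) were called, 4387 higher (24.2%) and 5496 lower (30.3%), 1147 were highest (6.33%) and 686 lowest (3.78%). Of the 901 genes highest in vehicle arrays, 758 were highest again and 0 were called lower in limma. Of the 563 lowest, 402 were lowest again and 0 were called higher. KLF1 differed by 6.09 in tamibarotene arrays, GATA1 by 3.75 and HBZ by 4.97. All 15 genes with the largest positive differences were highest again, and 12 of the 15 with the largest negative ones were lowest again, the exceptions being IRX3, MPO and PPP1R27.

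The difference between arms was called for 567 genes (3.13%). NMU was further from the other lines with tamibarotene, with 13.15, 13.18 and 13.12 in the treated OCI-M1 arrays, against 11.67, 11.57 and 11.50 in the vehicle arrays, and its difference from the other lines was 1.69 ± 0.13 larger (adjusted p = 1.40e-10). APOC1 moved the other way (-1.05 ± 0.09, adjusted p = 1.53e-09).

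**Figure D5:**
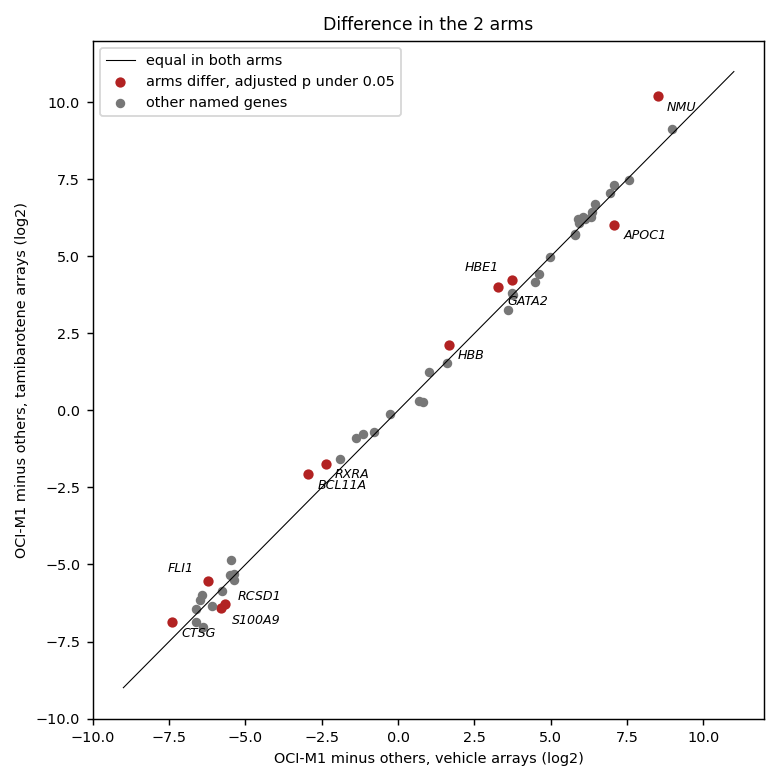
Difference between OCI-M1 and the other 6 lines in tamibarotene arrays (vertical, log2) against that in vehicle arrays (horizontal, log2) for 50 named genes, with the line of equality. The 11 red genes differed between arms at an adjusted p under 0.05, with NMU and APOC1 farthest from the line of the 50.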

How the data were processed

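Total RNA of the 7 lines was measured on Affymetrix PrimeView arrays. The deposited values are log2 intensities that the authors made by RMA with affy (version not stated), per the submitters' processing notes. Whether all arrays were normalized together is not given in the sources used here. Of 49395 probe sets, 44988 have 1 gene symbol in the platform annotation, 1832 several, 2473 none and 102 are controls. No further normalization was applied. Single-symbol probe sets were modelled in R 4.3.3 using limma 3.58.1 (lmFit, then eBayes), with 7 line means over the 18 vehicle arrays (11 residual degrees of freedom) and again over the 21 tamibarotene arrays (14). A fit of all 39 arrays in 14 groups gave the difference between arms. Benjamini-Hochberg adjustment ran over every single-symbol probe set of a contrast. Each of 18132 genes was read from its probe set with the highest mean of the 7 vehicle line means. Input was read by R's data.table in version 1.17.8, and plots were made with matplotlib 3.10.9 under Python 3.11.15. The fit was tested on simulated data.

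31 gene lists were written from general knowledge, and the members and lists were chosen with earlier results of these data known. The result of 1 list is not reported here. Named are the 15 genes of largest difference in each direction among the highest and lowest, members of the erythroid lists, up to 5 called members of largest difference from each other list, and a fixed set of lineage genes. XIST, TSIX and genes annotated to the Y chromosome were left out before this choice. IKZF1 and HLA-DQB1 were named after their values were seen. Alternatives were other normalizations, filters and probe set rules, array weights, RNA integrity, left-out arrays and lines, the replicate number as a block, and line means as units. Same-numbered arrays of OCI-M1 and another line had deviations that correlated from -0.37 to 0.361 over 15 pairs, so the numbers were not taken as pairs.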

Additional observations from a re-analysis of the deposited data

Results flagged for a closer look

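For 11 of the 50 named genes plotted by arm, the difference between OCI-M1 and the other 6 lines itself differed between arms. The arms are the tamibarotene and the vehicle arrays (limma, 39 arrays, adjusted over all probe sets). Over all genes the share called was 3.13%. The count of 11 does not cover the named genes outside that plot. The change, tamibarotene minus vehicle, was 1.69 for NMU, -1.05 for APOC1, 0.87 for BCL11A, 0.72 for FLI1, 0.72 for GATA2, 0.63 for RXRA, -0.61 for RCSD1, -0.60 for S100A9, 0.53 for CTSG, 0.49 for HBE1 and 0.47 for HBB. Adjusted p ran between 1.40e-10 for NMU and 0.0432 for HBE1. Each gene kept the sign of its vehicle difference in the tamibarotene arrays, and the value mixes the response of OCI-M1 with that of the other lines.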

How the results depend on the processing

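The counts of called genes changed most with which spread the test used. With line means as the units, 164 genes were called higher and 24 lower, and 176 named genes lost their call, since 5 residual degrees of freedom then carry the spread between lines. A minimum log2 difference of 1 left 1300 higher and 1208 lower. Without Kasumi-1 and Sig-M5, which leaves 4 lines to lie beyond, 1359 genes were highest and 1118 lowest. Without KG-1a, an alternative chosen after seeing the data, 1131 were highest and 759 lowest. Leaving out each OCI-M1 array in turn gave 3214 to 3435 genes higher and 3727 to 4170 lower, 787 to 873 highest and 503 to 520 lowest, and in the tamibarotene arrays 4037 to 4100 higher and 4483 to 4984 lower. The replicate number as a block gave 3659 higher and 4654 lower, 869 highest and 521 lowest, and 4355 and 5407 with tamibarotene. The numbers were not taken to pair the samples, as only 4 of 15 same-numbered correlations passed 0.1. Deviations from means of 2 or 3 arrays are not independent, so this check cannot exclude pairing. Among named genes that were called in the reported fit or in the alternative, the sign turned for SOCS3 (0.75 with the mean of all probe sets), CD3D (0.22) and IGHM (0.025) without KG-1a, and NCF4 (0.12) without OCI-AML3. Differences near 0 that were called in neither fit, such as those of HEMGN, SLC4A1 and RHD, also crossed 0. In the other planned settings the counts stayed within 1.5 times the reported ones. One of these used array weights whose estimation in limma stopped before it reached its tolerance, so its counts are less certain. Differences that rest on values near or below the background control medians of 2.78 to 3.06 may be understated.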
